A study of Rattus norvegicus with 28 samples.

Results

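The amino acid and neurotransmitter transporters described here are the 59 array genes, of 35469 gene names in all, whose symbol places them in the solute carrier families Slc1, Slc6, Slc7, Slc17, Slc18, Slc32 or Slc38. Members were taken by a rule on the symbol and were read by 72 probes on 99 spots. All samples came from adult female Sprague Dawley rats, and each of the 7 groups held 4 biological replicates, each on an array of its own. T0 was labelled sham and received no contusion, whereas all other animals received a severe contusion of 250 kdyn at the level of the eighth thoracic vertebra. A 1.5 cm piece of cord with the lesion epicentre was collected 1, 2, 4 or 8 weeks after injury (T1, T2, T4 and T8). Animals of 2 further groups received neural progenitor cells (NPCs), grown from injured adult rat cords and injected rostral and caudal to the lesion. T1_NPC animals were injected right after the contusion and collected at 1 week, and T2_NPC animals were injected 1 week after the contusion and collected at 2 weeks. Injured control animals received cell-free medium, per the study's methods, and the methods include FK-506 (tacrolimus, an immunosuppressant) in the care of all animals. Its start is given only relative to transplantation, so that its timing in the groups without NPCs is not known here. The tissue label of T2_NPC names a shorter stretch of cord than the labels of the other groups and does not mention that the dura mater was left out.

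Solute carriers of these families move amino acids and transmitters across membranes by coupling them to sodium, proton or exchange gradients. Vesicular carriers of the Slc17, Slc18 and Slc32 families load transmitter into synaptic vesicles, and the Slc1 and Slc6 carriers of neurons and astrocytes clear it from the extracellular space. Slc38 carriers pass glutamine between astrocytes and neurons, and the Slc7 light chains exchange amino acids in partnership with a heavy chain such as Slc3a2, also in macrophages and in barrier cells of the meninges and vessels.

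For 16 of the 28 samples, the column of the value table held the spots in exactly the rank order of a scanner output deposited under another sample, and for 12 samples it matched the sample's own output. The value table, whose columns carry the sample names, gives every value below. With the scanner outputs taken under the samples they were deposited with, none of the 59 transporters was called by limma in any comparison (4, 1, 23 and 9 at an unadjusted p under 0.05 at T1, T2, T4 and T8 against T0). No count of all gene names is given here beside these unadjusted counts. The loss of calls was not particular to the transporters. Of all 35469 gene names, 0, 1, 0 and 0 were called at these times, against 15657, 14176, 13638 and 14098 from the value table. The study reported counts of differentially expressed genes close to those from the value table. By the matched outputs, T0, T1, T2, T4 and T8 shared 5 slides in 2 scan sessions, while T1_NPC lay on 1 slide and T2_NPC on another, both scanned in the third session, so that transplantation and slide cannot be told apart. The first scan session held exactly the undisputed arrays of the time course (2 of T0, 1 of T1, 2 of T2, 1 of T4 and 2 of T8), the 4 T2_NPC arrays were undisputed, and the 4 T1_NPC arrays were all disputed. Where T1 or T4 is given over undisputed arrays, its single array is assumed to vary like those of the other groups. A difference within the first session is therefore also the difference over undisputed arrays, and 19, 27, 21 and 29 of the 35, 38, 34 and 37 calls given below against T0 were kept when only those arrays were fitted. Between 74.5 and 82.7% of spots lay well above background on each array, with 74.5 to 76.4% in T1_NPC. T1_NPC replicate 2 stood apart from the rest of its group, with a summed log2 signal of fibroblast and meningeal markers of 16.05 against 17.07 to 17.88 in the other T1_NPC arrays.

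Values are the log2 array values deposited by the authors, and a difference of 1 on this scale is a doubling. Of the 59 members, 41 were well above background on all 28 arrays, 12 on some arrays and 6 on none. A member was called where the Benjamini-Hochberg adjusted p of limma, over all 35469 gene names, was under 0.05. At T1, 16 members were higher and 19 lower than at T0, so that 59.3% of members were called against 44.1% of all gene names (19.1% higher and 25.1% lower). At T2, 16 rose and 22 fell, 64.4% of members against 40% of all gene names (17.7% higher and 22.2% lower). At T4, 15 rose and 19 fell, 57.6% against 38.5% (17.5% higher and 21% lower). At T8, 15 rose and 22 fell, 62.7% against 39.7% (18.2% higher and 21.5% lower). The median log2 fold change of the members was -0.08, -0.24, -0.06 and -0.03 at T1, T2, T4 and T8, and that of all gene names was -0.10, -0.06, -0.06 and -0.04. Over the 4 times, 18 members were lower at every time and 10 were higher at every time, which is 30.5% and 16.9% of members against 15.9% and 12.3% of all gene names. A further 6 were lower and 9 higher at only some times, none was called in both directions, and 16 were not called at any time, 27.1% against 44.9% of all gene names. The 4 comparisons share the same 4 T0 arrays, so that agreement between the times is partly built in. All 35, 38, 34 and 37 members called at T1, T2, T4 and T8 differed from T0 in the called direction in both the first and the second scan session. The sessions hold the same arrays that gave the calls, so this agreement was largely fixed in advance and is no independent support.

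**Figure D1:**
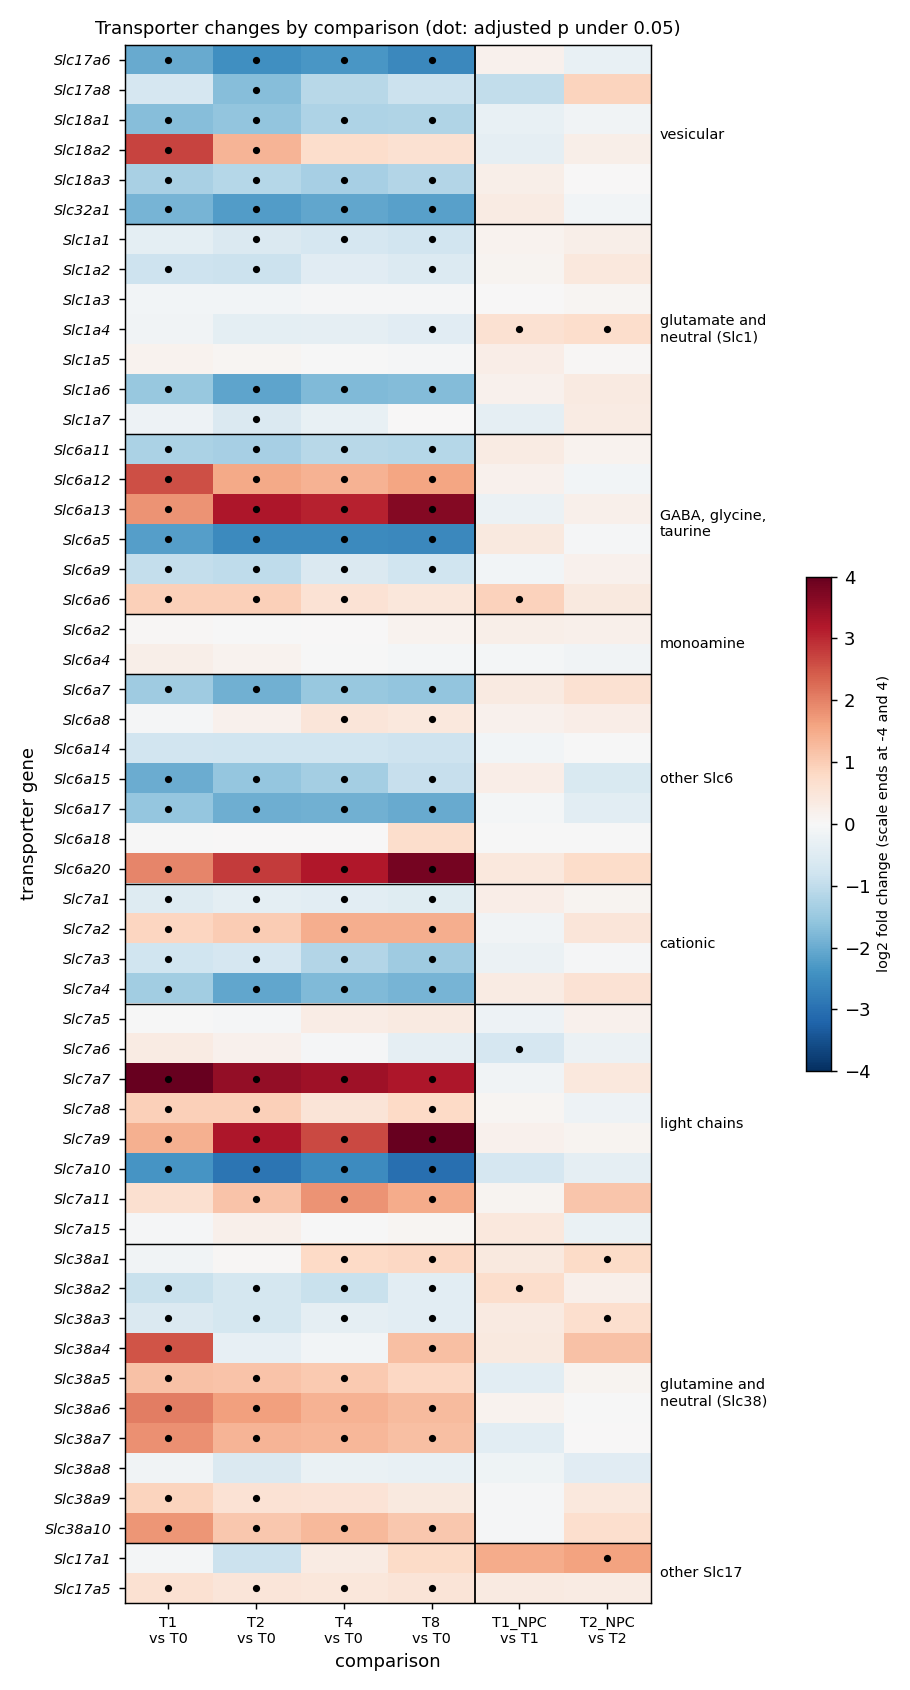
Log2 fold changes of 52 transporters that were well above background on at least 1 array (rows, grouped by role) in 6 comparisons (columns); colour runs from -4 (blue) to 4 (red), and a dot marks an adjusted p under 0.05. The 4 columns against T0 share the same T0 arrays and repeat one pattern by row. The 2 transplantation columns to the right of the black line are mostly pale, with 4 dots each.

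Most lists of cell type markers moved with these groups. All 8 neuronal markers on the array were lower at each time after injury, and their summed log2 signal was 18.44 to 18.88 in T0 and 16.60 to 17.56 in the injured arrays of the time course. All 7 microglial and macrophage markers were higher at each time (summed log2 signal 14.53 to 14.80 in T0 and 16.80 to 17.59 after injury). All 7 fibroblast and meningeal markers were higher at T1, T2 and T8 and 6 of them at T4 (12.82 to 13.28 in T0 and 16.10 to 17.97 after injury). Of 6 astrocyte markers, 1 was higher at T1, T2 and T8 and 2 at T4, while 3 were lower at T1, 1 at T2, 1 at T4 and none at T8 (17.15 to 17.28 in T0 and 16.32 to 17.38 after injury). Of 6 oligodendrocyte markers, 4, 5, 3 and 5 were lower at T1, T2, T4 and T8 and none was higher (18.54 to 18.87 in T0 and 17.77 to 18.44 after injury). All 3 Schwann cell markers on the array were higher at each time, with a median log2 fold change of 1.92 at T1 and 5.33 at T8 (summed log2 signal 9.18 to 9.77 in T0 and 11.33 to 14.99 after injury). All 4 T cell markers were higher at each time (8.50 to 9.09 in T0, where 2 of them were not well above background on any array, and 9.26 to 10.42 after injury), as were 4 of 5 progenitor and proliferation markers at T1 and all 5 later (12.99 to 13.57 in T0 and 15.74 to 16.69 after injury). Of 5 endothelial markers, 2 were higher at T1 and 1 later, none lower (13.41 to 13.93 in T0, 13.42 to 13.93 after injury). Of 5 skeletal muscle markers, 2 were higher at each time and 2, 2, 3 and 2 lower. Their sum was 12.19 to 12.97 in T0 and 10.56 to 11.58 after injury. Of 2 red blood cell markers, 1 was lower at T4 and T8 only (11.71 to 11.94 in T0, 10.84 to 12.80 after injury). Apart from the T cell and muscle lists, each of these marker lists held every one of its measured members above background on at least 1 array of each group. In these pieces of whole cord, fewer cells of a type and less RNA per cell cannot be told apart, and the part of these cell types in the changes below was not tested.

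Of the 7 vesicular transporters, which set what transmitter a neuron releases, 4 were lower at every time after injury. Slc17a6 (VGLUT2, vesicular glutamate loading in spinal neurons) and Slc32a1 (VGAT, loading of GABA and glycine) fell most among them at all 4 times, and Slc18a3 (the vesicular acetylcholine transporter of motor neurons) was lower by less. Slc17a6 measured 13.61, 13.76, 13.35 and 13.81 in T0, 11.83, 11.49, 12.31 and 10.86 in T1, 10.62, 12.00, 11.67 and 10.47 in T2, 10.47, 11.24, 11.82 and 11.72 in T4 and 11.05, 10.65, 11.39 and 11.09 in T8. Every T0 array lay above every injured array, and the T2 arrays fell into a higher pair (replicates 2 and 3) and a lower pair (replicates 1 and 4). Its log2 fold change was -2.01 ± 0.39 (SE, adjusted p = 0.000173) at T1 and -2.59 ± 0.39 (adjusted p = 9.87e-06) at T8. The pairs at T2 came from different scan sessions, and the T2 difference was -1.65 within the first session and -3.24 within the second, while that at T8 was -2.61 and -2.57. Over undisputed arrays alone, the calls at T1 and T4 were lost, at -1.65 (adjusted p = 0.0581) and -1.76 (adjusted p = 0.0529), and those at T2 and T8 were kept (adjusted p = 0.00345 at T8).

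Slc32a1 measured 14.27, 13.92, 14.11 and 14.09 in T0, 12.74, 12.00, 12.78 and 11.37 in T1, 10.93, 12.95, 12.46 and 11.05 in T2, 11.23, 11.75, 12.55 and 12.55 in T4 and 11.90, 11.69, 12.01 and 12.10 in T8. T0 again did not overlap with any injured group, and the same T2 arrays, replicates 1 and 4, were the lowest. Its log2 fold changes at T1, T2, T4 and T8 were -1.87, -2.25, -2.07 and -2.17, with an adjusted p of 0.000686 at T1 and 0.000169 at T8, and at T2 it differed by -1.48 within the first scan session and by -3.01 within the second. Slc18a3 measured 14.24, 14.30, 14.23 and 14.21 in T0 and 13.19, 12.90, 13.13 and 13.07 in T8. The T0 arrays lay close together and above all injured arrays, with log2 fold changes of -1.29, -1.13, -1.32 and -1.17 over the 4 times. Over undisputed arrays alone, Slc32a1 lost the calls at T1 (-1.45, adjusted p = 0.102) and T4 (-1.64, adjusted p = 0.078), Slc18a3 lost those at T1, T2 and T4 (-0.89, -0.82 and -0.76), and both kept the T8 call.

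Slc17a6 and Slc32a1 carry the main vesicular finding, and the 250 bases before their annotated starts are printed here because their values fell together. The sequences come from RefSeq (build GRCr8), which matched 42 of the 59 members by symbol. Of 3 motifs searched on both strands, these windows held only the core of the antioxidant response element (TGACNNNGC, capitals), which is present in 10.08% of all 33469 promoters of the same length and in 8 of the 42 members. The cAMP response element (TGACGTCA, 1.59% of all promoters) was found in Slc18a2 and Slc38a6 among the members, and not in these windows. A match is a description of letters and not a binding site.
Slc17a6 (chr1:110348197-110348446, plus strand): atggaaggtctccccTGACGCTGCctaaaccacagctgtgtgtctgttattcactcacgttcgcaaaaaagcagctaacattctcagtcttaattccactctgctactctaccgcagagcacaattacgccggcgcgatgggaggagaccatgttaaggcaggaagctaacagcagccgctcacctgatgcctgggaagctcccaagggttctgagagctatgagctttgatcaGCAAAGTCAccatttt
Slc32a1 (chr3:167686995-167687244, plus strand): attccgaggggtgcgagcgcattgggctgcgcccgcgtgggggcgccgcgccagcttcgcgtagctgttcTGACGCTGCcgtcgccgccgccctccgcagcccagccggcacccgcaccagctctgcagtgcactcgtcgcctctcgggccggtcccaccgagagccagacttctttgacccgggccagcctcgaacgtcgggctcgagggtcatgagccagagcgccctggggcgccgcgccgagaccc

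The monoamine loaders went opposite ways. Slc18a1 (VMAT1) measured 7.54, 7.45, 7.95 and 7.89 in T0 and 6.38, 5.75, 6.25 and 5.60 in T1, with no overlap, and its log2 fold changes of -1.71, -1.56, -1.23 and -1.19 were called at all 4 times. Slc18a2 (VMAT2, the loader of monoamine neurons and of mast cells and platelets) measured 4.04, 4.90, 5.61 and 4.76 in T0, 7.39, 7.66, 7.44 and 7.63 in T1, 6.22, 5.49, 5.94 and 7.13 in T2 and 5.39, 5.31, 5.80 and 5.24 in T8. All T1 arrays were above all T0 arrays, whereas T2 overlapped T0. Slc18a2 rose by 2.70 ± 0.47 (SE, log2, adjusted p = 5.3e-05) at T1 and by 1.37 (adjusted p = 0.0233) at T2, and was not called at T4 or T8. Both of its probes were called at T1, with log2 fold changes of 3.57 and 1.83, and only the first at T2, with 2.02 against 0.72. The first was well above background on 21 of the 28 arrays, and the size of the rise depends on the probe. The T2 call of the gene was lost without T0 replicate 1 or T2 replicate 4 (log2 fold change 1.05 to 1.63 over the fits that left out 1 array). Slc17a8 (VGLUT3) was well above background on all 4 T0 arrays (mean 4.79) and on no T2 array (mean 3.09), so that no fold is given. It was called lower at T2 (adjusted p = 0.0144), a call lost without T0 replicate 3 or T2 replicate 1 or 4. Slc17a7 (VGLUT1) was well above background on no array, and its call as lower at T8 (adjusted p = 0.0167) has therefore no fold.

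Of the 7 carriers of the Slc1 family, 2, 4, 2 and 4 fell at T1, T2, T4 and T8 and none rose. Slc1a2 (GLT-1, the main astrocytic glutamate transporter) measured 10.09, 9.84, 10.51 and 10.09 in T0, 9.80, 9.09, 9.20 and 9.14 in T1 and 8.84, 9.94, 9.40 and 8.97 in T2. T1 lay below T0 without overlap, and T2 replicate 2, at 9.94, overlapped T0. The log2 fold changes were -0.83, -0.85, -0.46 and -0.54, called at T1 (adjusted p = 0.00223), T2 and T8 but not at T4 (adjusted p = 0.0855), and the T8 call was lost without T0 replicate 1, 3 or 4 or T8 replicate 1 or 3 (-0.64 to -0.42). Slc1a3 (GLAST, also astrocytic) measured 12.81, 13.22, 13.17 and 13.09 in T0 and 12.92, 12.67, 12.99 and 13.27 in T1, and its groups overlapped at all times with log2 fold changes of -0.11, -0.12, -0.05 and -0.05 and no call. Slc1a1 (EAAC1, neuronal) was lower at T2, T4 and T8, by log2 fold changes of -0.59, -0.67 and -0.76, and differed by -0.40 (adjusted p = 0.0594) at T1. Of the neutral carriers of this family, Slc1a4 (ASCT1) was lower only at T8 (-0.46, adjusted p = 0.0303, lost without T0 replicate 1 or 4 or T8 replicate 2 or 3) and Slc1a5 (ASCT2) was not called, although 1 of its 2 probes, which was well above background on all arrays, was higher at T1 by 0.49. Slc1a6 (EAAT4), named after its values were seen, had log2 fold changes of -1.53, -2.12, -1.78 and -1.73, all called.

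Of the GABA and glycine carriers of the Slc6 family described here, 3 were lower and 2 were higher at every time. The lower ones were Slc6a5 (GlyT2, glycine reuptake into inhibitory neurons), Slc6a9 (GlyT1, glial) and Slc6a11 (GAT-3, astrocytic). Slc6a5 measured 12.89, 12.43, 12.80 and 12.53 in T0, 11.16, 9.92, 11.19 and 9.59 in T1, 8.70, 11.41, 11.20 and 9.12 in T2, 9.03, 9.81, 10.52 and 11.10 in T4 and 9.98, 9.65, 10.37 and 10.30 in T8. No injured array reached T0, and the replicates spread widely at T1, T2 and T4 and less at T8. The log2 fold changes were -2.20, -2.56, -2.55 and -2.59 (adjusted p = 0.00152 at T1 and 0.000348 at T8). Within scan sessions the T2 difference was -1.54 and -3.58, and over undisputed arrays the calls at T1 (-1.68, adjusted p = 0.0631) and T4 (-1.75, adjusted p = 0.0616) were lost.

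Slc6a11 measured 7.58, 7.25, 7.52 and 7.40 in T0 and 6.43, 6.44, 6.01 and 6.37 in T8, with no overlap and log2 fold changes of -1.26, -1.33, -1.12 and -1.13. Slc6a9 had log2 fold changes of -0.97, -1.01, -0.58 and -0.79, all called, of which the T4 call was lost without T0 replicate 2 or 4 or T4 replicate 4 (-0.73 to -0.37).

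**Figure D2:**
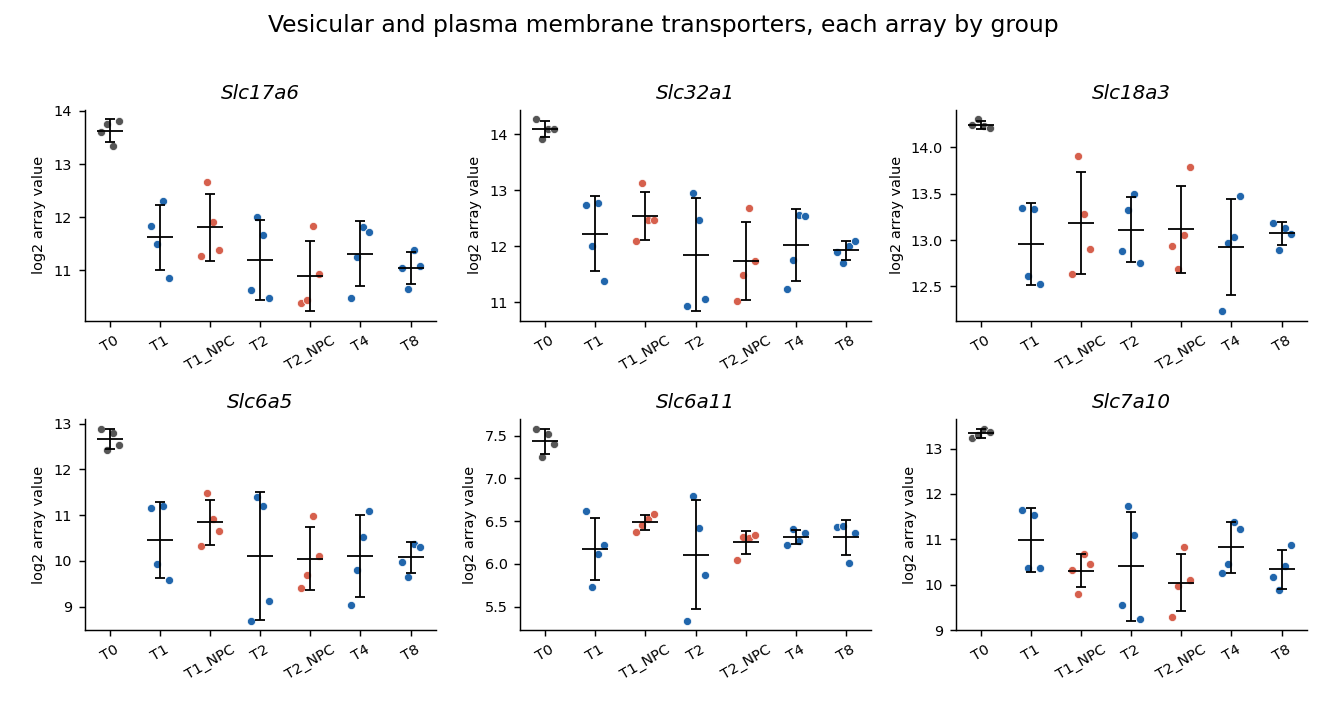
Log2 array values of 6 vesicular and plasma membrane transporters on each array (points) in the 7 groups, with the mean and SD of the 4 replicates (black; grey points T0, blue injured, red with NPCs). In each panel the 4 T0 points lie above all injured points, and in Slc6a5 the injured values span 8.70 to 11.48 against 12.43 to 12.89 in T0.

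Slc6a12 (BGT-1, a betaine and GABA carrier) and Slc6a13 (GAT-2, expressed in meninges and liver) went the other way. Slc6a12 measured 5.42, 5.68, 5.85 and 5.93 in T0, 7.88, 8.61, 8.10 and 8.56 in T1, 7.29, 6.92, 6.80 and 7.99 in T2 and 7.47, 6.97, 7.79 and 7.01 in T8. All injured arrays exceeded T0, and among the groups without NPCs T1 was the highest, overlapped by T2 replicate 4. The log2 fold changes against T0 were 2.57, 1.53, 1.40 and 1.59 (adjusted p = 3.53e-08 at T1). Slc6a13 measured 8.69, 8.91, 9.07 and 8.90 in T0, 10.44, 10.72, 10.55 and 11.11 in T1, 12.39, 11.56, 12.18 and 12.45 in T2, 11.93, 11.96, 11.56 and 12.43 in T4 and 12.32, 12.33, 12.90 and 12.68 in T8. T1 lay between T0 and the later times with no overlap on either side. Its log2 fold changes were 1.81, 3.25, 3.08 and 3.66 (adjusted p = 6.21e-07 at T8), and within the first scan session it differed by 1.56 at T1 and 3.62 at T8. Slc6a6 (TauT, the taurine carrier) rose by 0.95 at T1, 0.95 at T2 and 0.59 at T4 (log2), the last call being lost without T0 replicate 4 or T4 replicate 4 (0.40 to 0.75), and differed by 0.45 (adjusted p = 0.0785) at T8.

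Plasma membrane monoamine carriers were not called at any time. Slc6a4 (serotonin) measured 4.70, 4.74, 4.45 and 4.82 in T0 and 4.60, 4.49, 4.87 and 4.43 in T8, Slc6a2 (noradrenaline) was well above background on 22 of the 28 arrays, and Slc6a3 (dopamine) on none. Their log2 fold changes against T0 ran from -0.24 to 0.23 over the 4 times. Serotonin and noradrenaline neurons have their cell bodies in the brainstem, outside the pieces measured.

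Among the other Slc6 carriers, Slc6a20 (a proline carrier, SIT1) rose most. It measured 6.47, 7.06, 6.76 and 7.02 in T0, 8.14, 9.26, 8.55 and 9.12 in T1, 9.83, 8.85, 9.30 and 10.48 in T2, 10.09, 10.41, 9.66 and 10.01 in T4 and 10.91, 10.07, 10.83 and 10.77 in T8. No injured array overlapped T0, and log2 fold changes were 1.94, 2.79, 3.22 and 3.82 (adjusted p = 2.92e-07 at T8, 0.00022 over undisputed arrays). Slc6a8 (the creatine carrier) rose by 0.49 at T4 and 0.42 at T8 only, and its 2 probes disagreed at T1, where one differed from T0 by -0.53 and the other by 0.41, both called. Its calls at T4 and T8 rested on 1 probe (0.78 at T4 and 0.67 at T8), while the other differed by 0.20 and 0.17 (adjusted p = 0.184 and 0.265) and was not called. Slc6a7 (a brain proline carrier), Slc6a15 and Slc6a17 (neutral amino acid carriers of neurons), named after their values were seen, were lower at all 4 times, with log2 fold changes from -2.02 (Slc6a17 at T8) to -0.91 (Slc6a15 at T8). Slc6a14 and Slc6a18 were well above background on 1 array each.

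The Slc7 light chains held the largest fold changes of all members against T0 in both directions, among 9 genes of which 3, 4, 3 and 4 rose and 1 fell at T1, T2, T4 and T8. Slc7a7 (y+LAT1, the cationic exchanger of macrophages and epithelia) measured 4.16, 5.30, 4.35 and 5.66 in T0, 9.05, 9.89, 9.21 and 10.07 in T1, 8.48, 7.86, 8.14 and 9.09 in T2, 8.44, 8.50, 8.38 and 7.71 in T4 and 8.39, 7.48, 8.50 and 8.03 in T8. All injured arrays exceeded all T0 arrays, of which 3 of 4 were well above background. The log2 fold change was 4.69 ± 0.33 (SE, adjusted p = 7.29e-11) at T1 and 3.23 ± 0.33 (adjusted p = 5.27e-08) at T8, and 4.80 and 3.50 within the first scan session. Slc7a9 (b0,+AT, the cystine and dibasic carrier of kidney) measured 5.79, 5.29, 5.24 and 5.31 in T0, 6.63, 7.50, 7.08 and 6.16 in T1, 8.10, 8.62, 8.91 and 8.94 in T2 and 9.55, 9.71, 9.64 and 10.44 in T8. T8 was above every other group of the time course without overlap. Its log2 fold changes were 1.44, 3.23, 2.65 and 4.43, the T1 call (adjusted p = 0.0287) being lost without T0 replicate 2, 3 or 4 or T1 replicate 2 or 3 (1.22 to 1.66) and over undisputed arrays (adjusted p = 0.129). Its heavy chain partner Slc3a1 fell, with log2 fold changes of -1.67, -1.67, -1.54 and -1.76.

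Slc7a10 (Asc-1, which exchanges glycine, D-serine and alanine at synapses) measured 13.23, 13.30, 13.44 and 13.37 in T0, 11.64, 10.37, 11.53 and 10.37 in T1, 9.56, 11.74, 11.10 and 9.24 in T2, 10.25, 10.44, 11.39 and 11.23 in T4 and 10.17, 9.88, 10.41 and 10.88 in T8. The T0 arrays lay close together and above all injured arrays. It fell the most of all members at T8, with log2 fold changes of -2.36, -2.92, -2.51 and -3.00 (adjusted p = 7.42e-06 at T8), and both of its probes were called lower at each time. At T2 its differences within the 2 scan sessions were -1.91 and -3.94, and over undisputed arrays the T1 call was lost (-1.69, adjusted p = 0.0769) and the others were kept. Slc7a11 (xCT, the cystine and glutamate exchanger) measured 4.88, 4.76, 4.44 and 4.32 in T0, 5.18, 5.15, 5.65 and 7.03 in T2, 7.29, 6.19, 5.99 and 6.06 in T4 and 5.95, 6.20, 6.19 and 5.95 in T8. It rose by 1.15, 1.78 and 1.47 (log2) at T2, T4 and T8, and the T2 call was lost without T2 replicate 4, the highest array of that group (0.72 to 1.35). Slc7a8 (LAT2) rose at T1, T2 and T8 by 0.96, 0.95 and 0.80, and Slc7a5 (LAT1) was not called at any time, with log2 fold changes of -0.02, -0.05, 0.30 and 0.37. The shared heavy chain Slc3a2 (4F2hc) rose at all 4 times, by 0.80, 0.78, 1.16 and 1.19.

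The cationic carriers split. Slc7a2 (CAT-2, the arginine carrier of activated macrophages and glia) measured 5.14, 6.13, 5.62 and 5.62 in T0 and 7.05, 7.31, 7.09 and 6.93 in T8. Its log2 fold changes of 0.85, 1.02, 1.46 and 1.47 were all called, that at T1 being lost without T1 replicate 4 (0.62 to 1.01). Slc7a3 (CAT-3, neuronal) measured 11.66, 11.47, 11.69 and 11.49 in T0 and 10.13, 10.20, 10.04 and 10.28 in T8, with no overlap and log2 fold changes of -0.80, -0.68, -1.18 and -1.42. Slc7a1 (CAT-1) was lower at all 4 times with log2 fold changes of -0.52, -0.39, -0.42 and -0.48, that at T2 lost without T0 replicate 4 or T2 replicate 1 or 4, but only 1 of its 2 probes was called, with -0.92 at T1 against -0.13 for the other probe. Slc7a4, named after its values were seen, was lower at all 4 times (-1.38, -2.09, -1.78 and -1.85).

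**Figure D3:**
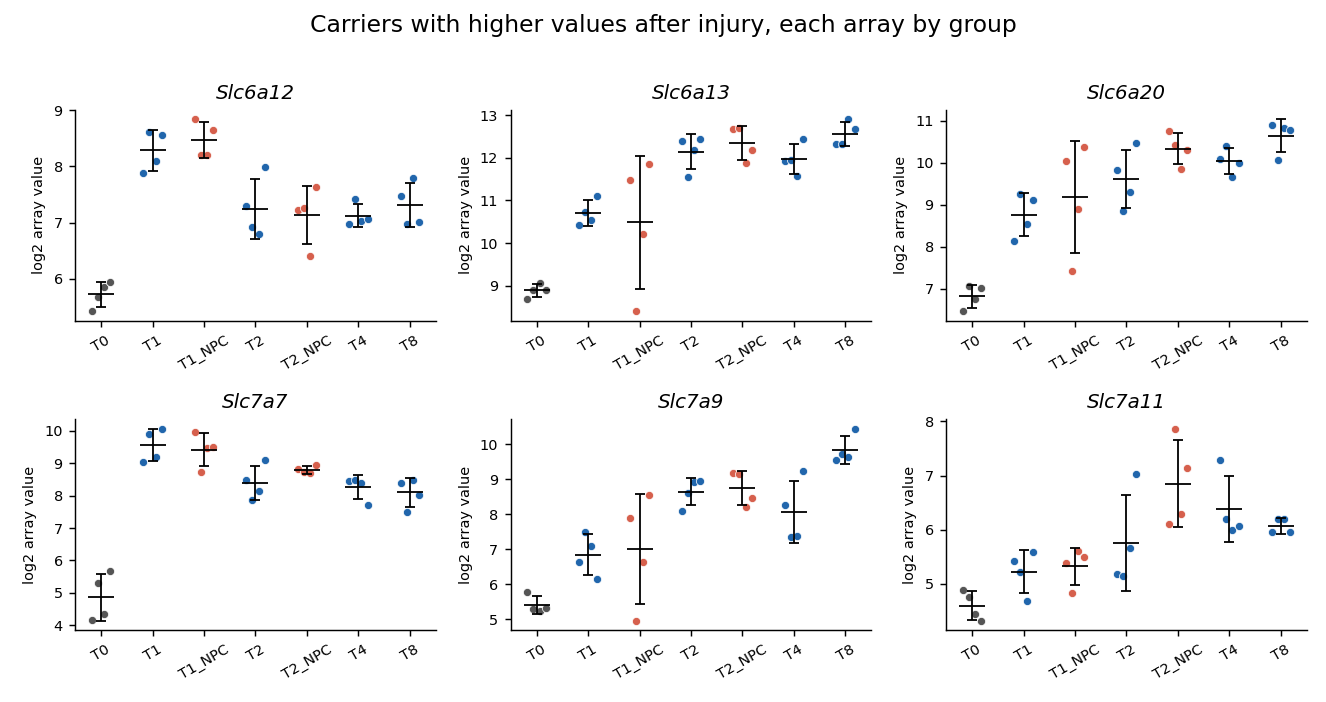
Log2 array values of 6 carriers with higher values after injury on each array (points) in the 7 groups, with the mean and SD of the 4 replicates (black; grey points T0, blue injured, red with NPCs). Slc6a13, Slc6a20 and Slc7a9 are highest at T8, Slc6a12 and Slc7a7 at T1 among the groups without NPCs, and T1_NPC replicate 2 is the low red point of Slc6a13 (8.41), Slc6a20 (7.42) and Slc7a9 (4.96).

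Of the 11 Slc38 glutamine and neutral amino acid carriers, 6, 5, 5 and 5 rose at T1, T2, T4 and T8, and Slc38a2 and Slc38a3 fell at all 4 times. Slc38a3 (SN1, glutamine release from astrocytes) measured 8.80, 9.16, 8.72 and 9.40 in T0 and 8.26, 8.45, 8.31 and 8.29 in T2, without overlap, and had log2 fold changes of -0.58, -0.69, -0.36 and -0.41. Its T4 call was lost without T0 replicate 2 or 4 or T4 replicate 2 or 4 (-0.46 to -0.23), and its T8 call without T0 replicate 2 or 4 or T8 replicate 2 (-0.51 to -0.29). Slc38a2 (SNAT2, which is induced by amino acid shortage) measured 11.45, 11.13, 11.37 and 11.23 in T0, 10.59, 10.43, 10.71 and 9.91 in T1 and 10.73, 10.98, 10.81 and 10.91 in T8. It lay below T0 without overlap at every time, with log2 fold changes of -0.88, -0.69, -0.88 and -0.44, that at T8 lost without T0 replicate 1 or T8 replicate 1. Slc38a1 (SNAT1, glutamine uptake into neurons) measured 9.14, 8.52, 8.18 and 8.60 in T0, 8.62, 8.39, 8.30 and 8.54 in T1, 9.53, 9.52, 9.34 and 9.22 in T4 and 9.63, 9.57, 9.28 and 9.27 in T8. T1 overlapped T0 and was not called (-0.15), while T4 and T8 exceeded T0 by 0.79 (adjusted p = 0.00376) and 0.83.

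Slc38a5 (SN2) rose by 1.16, 1.16 and 1.03 at T1, T2 and T4, the last call being lost without T0 replicate 3 or T4 replicate 2, and differed by 0.84 (adjusted p = 0.0554) at T8. Slc38a6 measured 5.97, 5.89, 5.60 and 5.53 in T0 and 7.51, 7.67, 7.94 and 8.00 in T1, with no overlap, and its log2 fold changes of 2.04, 1.65, 1.39 and 1.26 were shared by its 3 probes, each called at all 4 times. Slc38a7 (lysosomal glutamine export) and Slc38a10, both named after their values were seen, rose at all 4 times, with 1.84 and 1.76 at T1 and 1.22 and 1.09 at T8. Slc38a4 was well above background on all 4 T1 arrays and on no T0 or T2 array. Its measured values were 5.69-fold higher at T1 than at T0 (adjusted p = 3.88e-05) and 7.2-fold lower at T2 than at T1 (adjusted p = 0.00116). These folds are neither exact nor lower bounds, because the T0 and T2 values lay below detection. All 4 T8 arrays were also well above background, with measured values 2.31-fold those of T0 (adjusted p = 0.0263), under the same limit. This call was lost without T0 replicate 1 or 4 or T8 replicate 2 or 3 and with normexp background correction (adjusted p = 0.319). Of the remaining Slc17 carriers, Slc17a5 (sialin, a lysosomal sialic acid exporter), named after its values were seen, rose at all 4 times (0.60, 0.49, 0.46 and 0.52), with the calls at T2, T4 and T8 lost in 4, 10 and 4 of the 28 fits that left out 1 array, T0 replicates 2 and 3 among them each time (0.34 to 0.57 at T4).

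The members not yet described were named after their values were seen. Slc1a7 (EAAT5) fell at T2 only (-0.57, adjusted p = 0.0129), and Slc38a9 (a lysosomal arginine sensor) rose at T1 (0.89) and T2 (0.58, a call lost in 11 of the 28 fits that left out 1 array). Slc7a15 and Slc38a8, well above background on 25 and 17 of the 28 arrays, were not called at any time. Slc7a13, Slc17a2, Slc17a3 and Slc38a11 were well above background on none. Over undisputed arrays alone, Slc7a1, Slc17a5 and Slc38a3 lost all 4 calls against T0, Slc1a2 and Slc7a11 all 3 of theirs, and Slc38a1 and Slc38a9 both of theirs. Slc6a7 and Slc7a3 lost the calls at T1, T2 and T4 and kept that at T8. Single calls were also lost for Slc1a4, Slc1a6, Slc6a8, Slc6a17, Slc17a8 and Slc18a2, and the T1 and T4 calls for Slc7a4.

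Few members differed between successive times. From T1 to T2, 2 members fell and none rose, 3.39% of members against 1.48% of all gene names (0.815% higher and 0.665% lower). These were Slc38a4, given above, and Slc6a12, which fell by 1.04 (adjusted p = 0.0475). That call on Slc6a12 was lost in 20 of the 28 fits that left out 1 array (-1.28 to -0.89) and when only T1 and T2 were fitted. No member was called by limma from T2 to T4 or from T4 to T8. Of all gene names, 0.0761% were called from T2 to T4 (0.0507% higher and 0.0254% lower) and 0.0902% from T4 to T8 (0.0874% higher and 0.00282% lower). At an unadjusted p of limma under 0.05, 6 of 59 members and 3198 of 35469 gene names differed from T2 to T4. From T4 to T8, 4 members and 1716 gene names did so. With scan session or slide as a block, 8 and 10 members were called from T1 to T2, and 1702 and 1542 of the 35469 gene names in the same fits, against 525 without a block.

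The enzymes and partners of these transporters were read from a list of 45 genes, of which 44 were on the array. At T1, T2, T4 and T8, 9, 7, 10 and 8 of them rose and 19, 19, 18 and 15 fell, where 19.1, 17.7, 17.5 and 18.2% of all gene names rose and 25.1, 22.2, 21 and 21.5% fell. Both GABA-synthesising enzymes fell, Gad1 with log2 fold changes of -1.45, -1.90, -1.85 and -1.84 and Gad2 with -1.93, -2.40, -1.96 and -2.14, as did Abat, which degrades GABA (-1.40, -1.39, -1.14 and -1.16). Gls2, a glutaminase, fell, with log2 fold changes of -2.09, -2.28, -2.18 and -2.25, whereas Glul, the astrocytic glutamine synthetase, was not called (0.28, 0.07, 0.13 and -0.02). Of the monoamine enzymes, Th and Ddc fell at all 4 times, with log2 fold changes of -1.11 and -2.01 at T1, and Tph2, which makes serotonin in neurons, measured 7.17, 6.98, 6.58 and 7.01 in T0 and 4.65, 2.05, 3.90 and 3.78 in T8. Tph2 was well above background on all 4 T0 arrays but on 3, 1, 2 and 2 of 4 arrays at T1, T2, T4 and T8, so that its low values are near the limit of detection. It was called lower at all 4 times, with fitted log2 fold changes of -2.44, -3.95, -2.95 and -3.34. Chat, the acetylcholine-synthesising enzyme, was lower at T2 and T4 (-0.84 and -0.89) and was not called at T1 or T8 (-0.41 and -0.73). Its values were low throughout, at 4.91 to 5.44 in T0, and only 3 of 4 T2 arrays were well above background. T1 replicate 2, at 5.97, lay above every T0 array. Srr, which makes D-serine, fell at all 4 times (-1.11, -1.07, -1.09 and -1.16). Shmt1 (serine and glycine interconversion), Bcat2 (branched-chain amino acid breakdown) and Trib3 (a stress response gene) rose at all 4 times, with 2.48, 1.16 and 2.37 at T1. Asns and Atf4, which respond to amino acid shortage, were not called at any time, and Chac1 of the same response fell (-1.12, -1.34, -1.51 and -1.82). Trib3 went the other way, with a mean of 7.83 in T0 and 10.19, 10.74, 10.78 and 10.49 at T1, T2, T4 and T8. These genes therefore did not move one way, and a response to amino acid shortage was not tested.

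Transplantation of NPCs was compared with untransplanted cords of the same time. In T1_NPC, 3 members were higher and 1 lower than in T1, 6.78% of members against 11.9% of all gene names (5.45% higher and 6.46% lower). In T2_NPC, 4 members were higher and none lower than in T2, 6.78% against 9.47% (4.62% higher and 4.85% lower). The vesicular, GABA and glycine carriers that were lower after injury were not called in either comparison. Slc17a6 measured 11.27, 12.66, 11.90 and 11.38 in T1_NPC and 10.37, 10.44, 11.82 and 10.92 in T2_NPC, which overlapped T1 and T2 and lay below every T0 array, with log2 differences of 0.18 ± 0.39 and -0.30 ± 0.39 (SE). Slc32a1 differed by 0.32 ± 0.42 and -0.11 ± 0.42, and Slc6a5 by 0.38 ± 0.53 and -0.06 ± 0.53. Without T1_NPC replicate 2, the T1_NPC differences of the 3 genes were -0.10, 0.12 and 0.17, with an adjusted p of 0.923, 0.914 and 0.911.

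Slc1a4, the neutral amino acid carrier ASCT1 that passes serine and alanine, was called higher in both comparisons. It measured 7.11, 7.04, 6.52 and 6.89 in T1 and 7.54, 7.65, 7.60 and 7.18 in T1_NPC, and 6.34, 6.91, 6.79 and 6.52 in T2 and 7.36, 7.23, 7.12 and 7.65 in T2_NPC. All transplanted arrays exceeded all arrays of their time-matched group. The log2 difference was 0.60 ± 0.17 (SE, adjusted p = 0.0206) at 1 week, lost without T1 replicate 3 or T1_NPC replicate 2 (0.55 without the latter, adjusted p = 0.0609), and 0.70 ± 0.17 (adjusted p = 0.0106) at 2 weeks, where undisputed arrays alone gave 0.49 (adjusted p = 0.0704). Slc38a1 and Slc38a3 were called only at 2 weeks. Slc38a1 measured 8.42, 8.83, 8.76 and 8.68 in T2 and 9.26, 9.77, 9.46 and 9.26 in T2_NPC, and differed by 0.77 ± 0.21 (adjusted p = 0.022), a call lost without T2 replicate 1 or T2_NPC replicate 2 and over undisputed arrays (0.64, adjusted p = 0.135). Slc38a3 measured 8.26, 8.45, 8.31 and 8.29 in T2 and 8.89, 9.01, 8.96 and 9.10 in T2_NPC, and differed by 0.66 ± 0.13 (adjusted p = 0.00305), or by 0.61 (adjusted p = 0.0144) over undisputed arrays. Neither pair of groups overlapped, and at 1 week these carriers differed by 0.40 (adjusted p = 0.228) and 0.36 (adjusted p = 0.0856).

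Slc38a2 and Slc6a6 were called only at 1 week. Slc38a2 measured 10.59, 10.43, 10.71 and 9.91 in T1 and 10.97, 11.48, 11.05 and 10.89 in T1_NPC, and 10.93, 10.80, 10.74 and 10.76 in T2_NPC. The 1 week groups did not overlap, and the difference was 0.69 ± 0.15 (SE, adjusted p = 0.00395), against 0.20 (adjusted p = 0.43) at 2 weeks. Without T1_NPC replicate 2, the 1 week difference was 0.56 (adjusted p = 0.0172). Slc6a6 measured 10.14, 9.77, 9.75 and 9.74 in T1, 10.58, 11.10, 10.88 and 10.53 in T1_NPC, 9.72, 9.96, 9.86 and 9.82 in T2 and 10.41, 10.11, 10.03 and 10.40 in T2_NPC. Its transplanted arrays were above their time-matched group at both times, by 0.92 ± 0.20 (adjusted p = 0.0046) and 0.40 ± 0.20 (adjusted p = 0.231), and the first was 0.81 (adjusted p = 0.0191) without T1_NPC replicate 2. Slc7a6 (y+LAT2) measured 5.24, 4.78, 4.70 and 5.21 in T1 and 4.58, 4.40, 4.31 and 3.99 in T1_NPC, where only 1 of 4 arrays was well above background, with a log2 difference of -0.66 (adjusted p = 0.013). Slc17a1 was called higher in T2_NPC (adjusted p = 0.049), a call lost in 20 of the 28 fits that left out 1 array. Only 1 of 4 T2_NPC arrays was well above background against none in T2, so that no fold is given. Without T1_NPC replicate 2, Slc17a1 was also called higher in T1_NPC (adjusted p = 0.0299) and Slc7a6 remained called. Slc7a6 and Slc17a1 were named after their values were seen.

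No neuronal, astrocyte, microglial, fibroblast, Schwann cell or T cell marker was called in either comparison. The neuronal sum was 16.95 to 17.75 in T1_NPC and 16.62 to 17.42 in T2_NPC. Of the 2 red blood cell markers, 1 was called higher in T2_NPC (summed log2 signal 12.37 to 14.50, against 10.84 to 11.98 in T2), and 1 of 5 endothelial markers was higher in each comparison. In T2_NPC 2 of 6 oligodendrocyte markers were also higher (18.43 to 18.56, against 17.95 to 18.27 in T2, with no overlap), with 1 of 5 progenitor and proliferation markers, and 1 of 5 skeletal muscle markers was lower in T1_NPC. Their part in the differences above was not tested.

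No member differed between the transplantation effects at 2 weeks and at 1 week by limma, where 0.299% of all gene names were called. At an unadjusted p of limma under 0.05, 4 of 59 members and 3969 of 35469 gene names differed. The calls made at only 1 of the times are not shown to differ between times. The slide of each NPC group holds no other group. Slide as a random block left 2 of the 4 calls in T2_NPC (Slc1a4 and Slc38a3) and 3 of the 4 in T1_NPC (Slc38a2, Slc6a6 and Slc7a6). Over all gene names that fit called 1623 in T2_NPC and 2236 in T1_NPC, against 3359 and 4225 without the block. Slc3a2, the heavy chain, was the partner gene called higher in both comparisons, by 0.81 (adjusted p = 0.0429) and 0.91 (adjusted p = 0.0288), and of the 44 partner genes 2 rose and 1 fell in T1_NPC and 4 rose in T2_NPC.

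The promoters of Slc1a4 and Slc38a1 are printed because both were called higher in T2_NPC and both hold the C/EBP-ATF response element (TGATGNAA, searched on both strands, capitals), which is known from genes that respond to amino acid shortage. This motif is present in 3.4% of all promoters of this length and in 3 of the 42 matched members, Slc7a1, not called in T2_NPC, being the third. Because the printed genes were chosen for both traits, the pairing of call and motif is no finding, and a link was not tested. The window of Slc38a2 did not hold these letters, and Slc38a3 was not matched.
Slc1a4 (chr14:98761563-98761812, minus strand): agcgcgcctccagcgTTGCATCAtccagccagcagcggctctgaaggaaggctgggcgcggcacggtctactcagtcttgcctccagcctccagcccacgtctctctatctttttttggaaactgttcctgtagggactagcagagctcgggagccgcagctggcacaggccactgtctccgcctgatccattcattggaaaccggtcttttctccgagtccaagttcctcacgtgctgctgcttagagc
Slc38a1 (chr7:129681402-129681651, minus strand): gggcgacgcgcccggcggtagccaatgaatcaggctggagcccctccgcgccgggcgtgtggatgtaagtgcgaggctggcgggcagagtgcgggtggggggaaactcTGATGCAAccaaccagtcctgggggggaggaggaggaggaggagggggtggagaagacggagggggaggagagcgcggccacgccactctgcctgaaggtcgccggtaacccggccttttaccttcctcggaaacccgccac

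**Figure D4:**
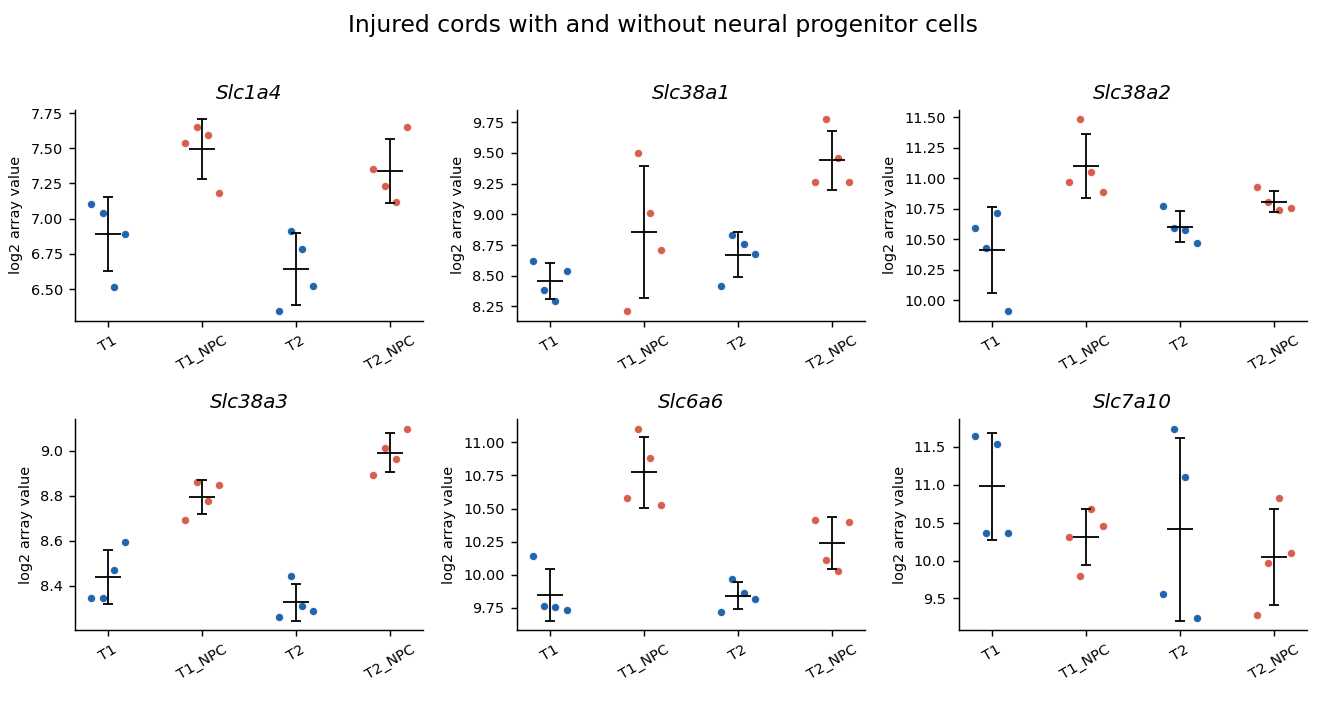
Log2 array values of 6 carriers on each array (points) in T1, T1_NPC, T2 and T2_NPC, with the mean and SD of the 4 replicates (black; blue injured, red with NPCs). The red points of Slc1a4 lie above the blue points of the same week at both times, while Slc7a10, shown for a carrier that was not called, overlaps (log2 differences -0.67 and -0.37).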

How the data were processed

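Gene expression was measured in 28 rat spinal cords, 4 per group, on 1-colour Agilent arrays read with Agilent Feature Extraction 10.7.1.1, per the file headers. The log2 values used here were deposited by the authors in a value table, which is quantile normalized (the sorted values of all columns coincide). The deposited scanner outputs hold the signal intensity of each spot and its flags, from which detection, slide and scan session were read. Control spots were left out (1639 of 45018). Spots were averaged per probe and probes per gene name, and all 35469 gene names were fitted with limma 3.58.1 (R 4.3.3) on 7 group means, with empirical Bayes moderation and Benjamini-Hochberg adjustment. A gene was called at an adjusted p under 0.05.

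Each value table column was matched to scanner outputs by rank order (Spearman correlation of 1 with the best output, at most 0.993 with the next). No spot was saturated. Precision is limited by the 4 arrays per group. The labels give no litters or extraction days, and p-values measure the spread between these animals' samples. The fit recovered, on simulated data with 200 of 35469 genes changed between T1 and T0, 84% of changes of 2 and 51% of changes of 1 on the log2 scale, with 6.25% of calls false. The simulated errors were independent and far fewer genes were changed than the 44.1% called at T1. These rates therefore check the fit and do not give its sensitivity in the real comparisons.

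The gene lists, the members and the rule for naming genes were chosen with earlier results of these data known. The rule named 36 well-known carriers (35 on the array) and, in each comparison, the 3 members that rose and the 3 that fell most among those called, well above background on all arrays and not overlapping. Alternatives were other normalizations of the scanner outputs (quantile, 75th percentile, normexp with an offset of 50), their deposited assignment, undisputed arrays only, dim probes left out, the brightest probe per gene, other moderation, fits of only the compared groups, slide, session or replicate number as a block, a change of at least 2-fold, and leaving out each array. Differences within scan sessions were added after seeing the data. Promoters of 250 bases and current symbols came from RefSeq (GRCr8). A member is counted in the totals but not reported by name or value here. No array probe was placed on a genome here.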

Additional observations from a re-analysis of the deposited data

Results flagged for a closer look

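In 315 sets of 4 replicates above background, the array farthest from the rest was set against Dixon's critical value (0.829), and 15 stood out, where chance alone marks about 1 set in 20. At T1, Slc1a2 was at 9.80 in replicate 1 against 9.09 to 9.20 in the rest and Slc6a6 at 10.14 in replicate 1. In T4, Slc6a4 (5.33), Slc6a7 (6.02) and Slc7a11 (7.29) stood out in replicate 1, and Slc7a1 (9.13) and Slc7a7 (7.71) in replicate 4. In T2, these were Slc1a5 in replicate 2 (6.51) and Slc7a3 in replicate 4 (10.25). In T8, they were Slc1a3 in replicate 3 (13.23), and Slc6a20 (10.07) and Slc7a4 (5.32) in replicate 2. In T0, Slc7a9 was at 5.79 in replicate 1. Slc7a8 in T1_NPC replicate 2 (10.90) belongs to the array described above as standing apart, and Slc6a11 in T2_NPC replicate 1 was at 6.05.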

How the results depend on the processing

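The counts of called transporters were recomputed under 14 alternatives. Where each scanner output was kept with the sample it was deposited under, the count was 0 in all comparisons (limma). Of all gene names, 0, 1, 0 and 0 were then called at T1, T2, T4 and T8 against T0, and 43 in T2_NPC against T2. With undisputed arrays only, it was 19 at T1 and 22 at T4 against T0, 1 from T1 to T2 and 11 in T2_NPC against T2 (over all gene names 10924, 9421, 220 and 7399, against 15657, 13638, 525 and 3359 with all arrays). In T2_NPC, 2 of the 4 calls were kept and no called member changed sign; for T1_NPC no undisputed array exists and this alternative was not run. A change of at least 2-fold left 24 at T8, 0 in T1_NPC and 1 in T2_NPC. The share of all gene names at this threshold is not given here, so that these counts have no background to be read against. The 1 in T2_NPC was Slc17a1, which was well above background on only 1 T2_NPC array and on no T2 array. Fitting only the compared groups left 1 in T1_NPC and 0 from T1 to T2. Over all gene names these counts were 1223 and 115, against 4225 and 525 in the main fit. Scaling to the 75th percentile gave 7 in T1_NPC, 1 from T1 to T2 and 1 between the transplantation effects. Over all gene names these counts were 7397, 707 and 1976, against 4225, 525 and 106 in the main fit. Normexp gave 1 from T4 to T8, and 120 of all gene names against 32 in the main fit. With scan session as a fixed block, 8 were called from T1 to T2 and 1 from T2 to T4, and with slide as a fixed block 10 from T1 to T2. Over all gene names these counts were 1702, 374 and 1542, where the main fit gave 525 from T1 to T2 and 27 from T2 to T4. Neither block could be fitted for transplantation. Slide as a random block gave 2 in T2_NPC, and 1623 of all gene names against 3359 in the main fit. The cause of these changes was not tested.

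Leaving out 1 array gave 34 to 37 calls at T1, 33 to 39 at T2, 31 to 37 at T4 and 34 to 38 at T8 against T0. It gave 1 to 5 from T1 to T2, 3 to 7 in T1_NPC and 2 to 5 in T2_NPC. Counts over all gene names moved too, that in T2_NPC being 2040 without T2 replicate 1 and 3613 without T4 replicate 4. Of the 12 values that reversed, 11 did so where outputs kept their deposited assignment, at log2 differences of -0.062 (T1) and -0.085 (T2) for Slc17a5, -0.14 (T1) and -0.10 (T2) for Slc6a6, -0.31 for Slc38a1 (T4), 0.027 for Slc38a3 (T1), -0.15 for Slc7a11 (T2) and 0.24 for Slc7a3 (T2). In T1_NPC they were -0.54 for Slc1a4, -0.29 for Slc38a2 and -0.11 for Slc6a6. Slc17a2 in T1_NPC, well above background on no array, was 0.83 after 75th percentile scaling.

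Samples with the same replicate number did not deviate together in every pair of any comparison, so the numbers were not taken as pairing. With the replicate number as a block, 1 member was called from T1 to T2 (397 of all gene names, against 525 without it), and the other counts stayed within 1.5 times.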
